A study of Mus musculus with 8 samples.

Results

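The 9 genes described here encode proteins of the synaptonemal complex (Sycp1, Sycp2, Sycp3, Syce1, Syce2 and Tex12) and cohesin subunits made for meiosis (Smc1b, Rec8 and Stag3). They were found by name among the non-control probes of an Agilent mouse expression array. The 9 genes had 10 of the array's 55681 probes and are 9 of 34821 gene names on it. RNA came from testes of C57BL/6 mice of 4 groups with 2 arrays each, 8 arrays in all. The groups were Ip6k1 knockout (KO) at 26 days postpartum (dpp), wild type (WT) at 26 dpp, KO at 17 dpp and WT at 17 dpp. KO and WT animals were littermates from crosses of heterozygous (Ip6k1+/-) parents, and the arrays of a group are called biological replicates in the labels. Ip6k1, inositol hexakisphosphate kinase 1, makes an inositol pyrophosphate. The deletion is not limited to a cell type, and the part of the gene removed is not given in the sources used here.

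During meiotic prophase the synaptonemal complex joins homologous chromosomes along their length. SYCP2 and SYCP3 form the lateral elements on the chromosome axes, SYCP1 forms the transverse filaments that bridge them, and SYCE1, SYCE2 and TEX12 belong to the central element in between. The axes are built on cohesin rings, in which SMC1B, REC8 and STAG3 take the places of subunits used in other cells. The complex is assembled in spermatocytes, and in the first wave of mouse spermatogenesis spermatids appear between the ages compared here.

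All 10 probes were well above background on all 8 arrays, and all 10 passed the filter on dim probes that 37807 probes passed. Values are log2 signals relative to the array's 75th percentile, so a difference of 1 is a doubling, and levels of different probes are not set against each other. Sycp3 had 2 probes, both on chromosome 10 in the files' build (mm9, plus strand), at chr10:87935675-87935734 and, for the second, over the 3091 bases of chr10:87932348-87935438. Both are shown because the Sycp3 values below rest on their giving the same picture, and no stretch longer than 5 bases is common to them.
Sycp3 brighter probe: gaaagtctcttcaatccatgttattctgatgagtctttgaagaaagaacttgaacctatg
Sycp3 second probe: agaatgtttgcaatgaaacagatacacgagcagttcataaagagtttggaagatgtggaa

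The RefSeq promoter windows (GRCm38.p6, 300 bases each, from upstream of a gene's start to just past it) were searched on both strands for motifs of factors known to act on meiotic genes. TTCCCGC, the E2F motif, was in the windows of 5 of the 9 genes (Sycp3, Syce2, Tex12, Smc1b and Stag3), against 4.6% of 32851 promoters. CACGTG, the E-box that MGA and MAX bind, was also in 5 (Sycp1, Sycp3, Syce2, Tex12 and Stag3), against 7.15%. CNCCTCAG, a motif of STRA8, was in 3 (Sycp1, Syce2 and Tex12), against 7.94%, and in Syce2 it overlaps the E2F match. CAACGG, a MYB motif, was in 2 (Sycp3 and Smc1b), against 5.12%. The MYB motif CAACTG (13.7% of promoters) and the CRE motif TGACGTCA (1.79%) were in 0 windows. Sycp2, Syce1 and Rec8 had no match to any of the 6 motifs. The windows of the 9 genes (10 windows, with 2 for Syce2) had a median GC content of 60% and 20 CpG sites, against 52.7% and 7 CpG sites over all promoters. The windows of the pair of genes that rose with age and of a pair with lower signals at 26 dpp in WT are shown with motif matches in capitals. They are Syce1 (chr7:140787805-140788104, minus strand), Stag3 (chr5:138280259-138280558, plus strand), Sycp3 (chr10:88459337-88459636, plus strand) and Tex12 (chr9:50561219-50561518, minus strand).
Syce1: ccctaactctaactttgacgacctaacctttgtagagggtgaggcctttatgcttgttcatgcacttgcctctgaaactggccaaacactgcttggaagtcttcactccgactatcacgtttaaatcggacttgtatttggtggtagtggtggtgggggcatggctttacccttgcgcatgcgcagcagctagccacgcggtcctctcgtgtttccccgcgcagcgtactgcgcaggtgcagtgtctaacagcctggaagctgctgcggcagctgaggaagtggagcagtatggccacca
Stag3: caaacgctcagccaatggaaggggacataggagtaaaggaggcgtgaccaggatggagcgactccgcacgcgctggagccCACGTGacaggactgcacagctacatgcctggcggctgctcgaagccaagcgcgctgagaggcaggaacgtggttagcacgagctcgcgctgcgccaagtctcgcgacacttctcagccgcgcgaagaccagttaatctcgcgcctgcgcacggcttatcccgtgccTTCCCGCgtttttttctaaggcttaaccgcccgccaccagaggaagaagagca
Sycp3: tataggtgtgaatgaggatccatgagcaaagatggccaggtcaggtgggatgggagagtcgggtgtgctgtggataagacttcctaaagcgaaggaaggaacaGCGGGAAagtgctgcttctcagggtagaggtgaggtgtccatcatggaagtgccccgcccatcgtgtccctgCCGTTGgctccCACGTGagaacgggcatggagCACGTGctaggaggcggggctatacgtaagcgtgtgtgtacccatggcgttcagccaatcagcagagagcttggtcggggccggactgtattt
Tex12: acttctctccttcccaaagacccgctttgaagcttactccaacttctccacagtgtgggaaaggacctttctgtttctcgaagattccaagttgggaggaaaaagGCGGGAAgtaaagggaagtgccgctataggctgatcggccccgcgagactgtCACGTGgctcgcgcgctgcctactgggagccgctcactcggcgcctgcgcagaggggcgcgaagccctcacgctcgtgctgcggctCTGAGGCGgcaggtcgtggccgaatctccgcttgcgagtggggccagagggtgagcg

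The arrays differed in ways that bear on every result. Between 58.9% and 64.2% of probes were well above background in KO and 62.1% to 62.8% in WT at 26 dpp, and 62.7% to 63.7% in KO and 63.3% to 64.7% in WT at 17 dpp. The 2 KO arrays of 26 dpp correlated at 0.867 across probes, which are not independent replicates, against 0.979 to 0.988 within the other groups. The replicate 2 array of that group (KO replicate 2 below) correlated at 0.918 to 0.946 with the 17 dpp arrays and at 0.844 and 0.876 with WT at 26 dpp. All arrays shared 1 slide and 1 scan, with 17 dpp in its first row and 26 dpp in its second, so slide row and age cannot be told apart. Ip6k1 had signals of 1.55 and 1.5 in KO and 2.92 and 2.89 in WT at 26 dpp, and 1.58 and 1.67 in KO and 2.38 and 2.48 in WT at 17 dpp. It was lower on every KO array than on every WT array, as the labels have it, though whether its probe lies in the deleted part is not given in the sources used here. In limma's test its difference was -1.38 at 26 dpp (SE 0.23, adjusted p = 0.535) and -0.81 at 17 dpp (SE 0.23, adjusted p = 1).

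**Figure D1:**
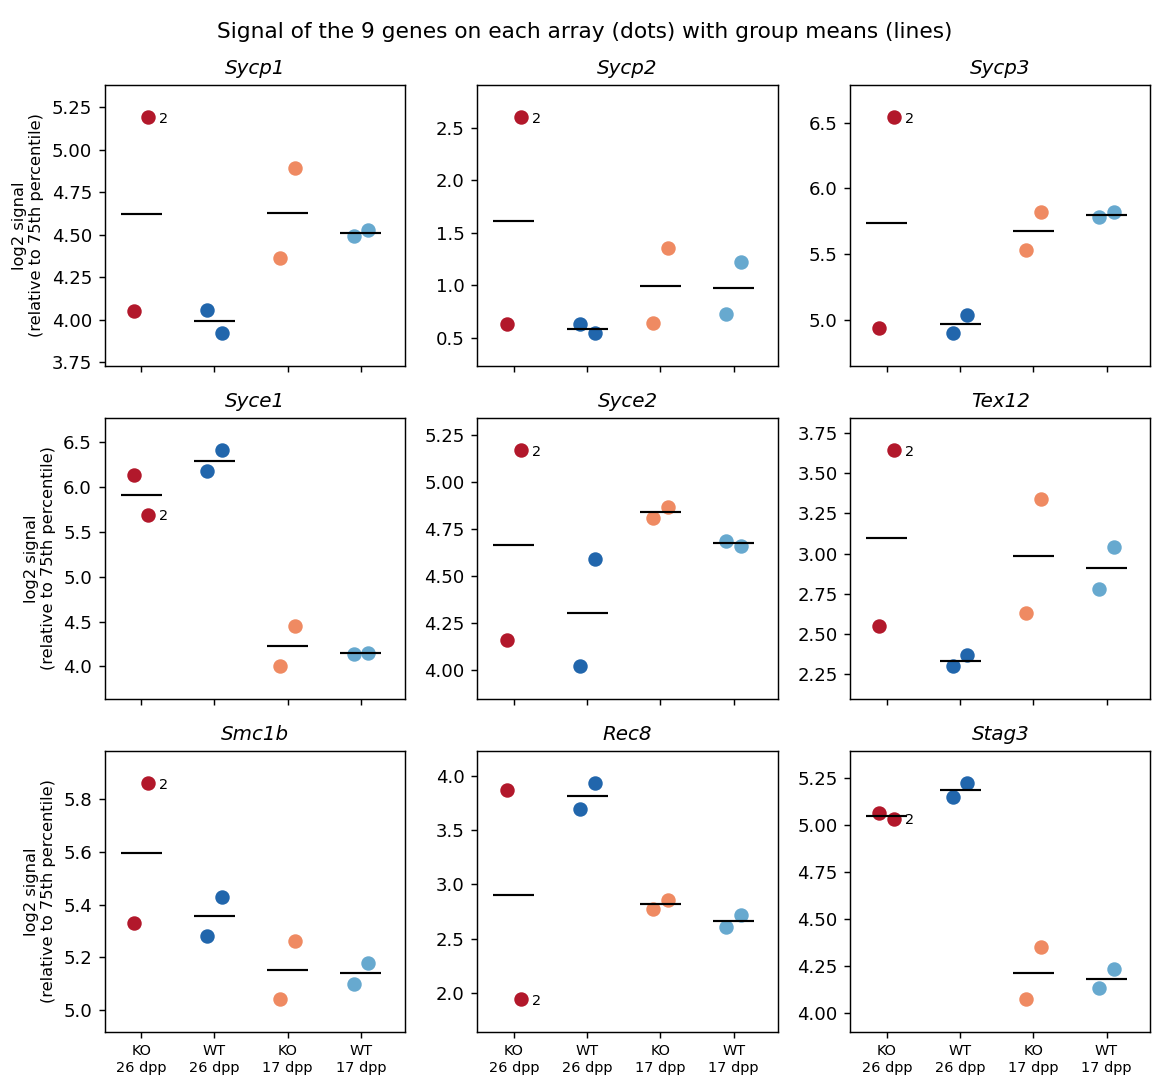
Log2 signal relative to the 75th percentile (vertical axis, own range per gene) of each gene's brightest probe on every array (dots, KO replicate 2 of 26 dpp marked 2) in the 4 groups, with group means as lines. Syce1 and Stag3 lie higher at 26 than at 17 dpp on all arrays, and KO replicate 2 lies above all 7 other arrays for 6 genes and below all 7 for Rec8.

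The change with age in WT was the clearest result for these genes. In WT testes Syce1 and Stag3 rose between 17 and 26 dpp, by 4.43-fold and 2.01-fold, in limma's test over all probes. The other 7 did not pass it: Rec8 and Smc1b had higher means at 26 dpp, and Sycp1, Sycp2, Sycp3, Syce2 and Tex12 lower ones. That gives 2 of 9 genes called, both higher, where 44.1% of all tested probes were called, 17.6% as higher and 26.6% as lower. The count for the 9 is below the background for either direction and near it for higher calls, so it does not set these genes apart. The signal of all tested probes shifted by a median of -0.533 between the ages in WT, and the median of the 9 genes was -0.369. In these bulk samples, fewer cells of a type and less RNA per cell cannot be told apart.

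Syce1 encodes a central element protein needed for synapsis. It had signals of 6.14 and 5.69 in KO and 6.18 and 6.41 in WT at 26 dpp, and 4.0 and 4.45 in KO and 4.14 and 4.15 in WT at 17 dpp. Every array of 26 dpp was above every array of 17 dpp. The difference with age was 2.15 in WT (SE 0.29, 95% interval 1.44 to 2.85, adjusted p = 0.00777). In KO it was 1.69 (SE 0.29, 95% interval 0.98 to 2.40, adjusted p = 0.0235), or 3.22-fold.

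Stag3 encodes the meiotic cohesin subunit that binds the kleisin of the ring. It had signals of 5.06 and 5.03 in KO and 5.15 and 5.22 in WT at 26 dpp, and 4.07 and 4.35 in KO and 4.13 and 4.23 in WT at 17 dpp. The ages did not overlap in either genotype. The difference was 1.00 in WT (SE 0.24, 95% interval 0.43 to 1.58, adjusted p = 0.0233) and 0.83 in KO (SE 0.24, 95% interval 0.26 to 1.41, adjusted p = 0.0636).

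Rec8 encodes the meiotic kleisin that closes the ring and is cleaved when chromosomes separate. It had signals of 3.87 and 1.94 in KO and 3.69 and 3.93 in WT at 26 dpp, and 2.77 and 2.86 in KO and 2.61 and 2.72 in WT at 17 dpp. Of the 4 arrays of 26 dpp, 3 were above every array of 17 dpp, and KO replicate 2 was below all of them. The difference with age was 1.14 in WT (SE 0.60, 95% interval -0.30 to 2.59, adjusted p = 0.150) and 0.10 in KO (SE 0.60, adjusted p = 0.912).

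Smc1b, the third meiotic cohesin gene, encodes one of the long coiled-coil arms of the ring. Its signals were 5.33 and 5.86 in KO and 5.28 and 5.43 in WT at 26 dpp, and 5.04 and 5.26 in KO and 5.10 and 5.18 in WT at 17 dpp. The arrays of 26 dpp lay above those of 17 dpp by a small margin. The difference with age was 0.21 in WT (SE 0.28, 95% interval -0.47 to 0.89, adjusted p = 0.544) and 0.45 in KO (SE 0.28, adjusted p = 0.284).

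The genes of the lateral elements and of the transverse filaments had lower signals at 26 dpp in WT. Sycp3, the axis protein often used to stain spermatocyte chromosomes, had signals of 4.94 and 6.54 in KO and 4.90 and 5.04 in WT at 26 dpp, and 5.53 and 5.82 in KO and 5.78 and 5.82 in WT at 17 dpp. Its second probe had signals of 3.84 and 5.34 in KO and 3.79 and 3.95 in WT at 26 dpp, and 4.24 and 4.67 in KO and 4.60 and 4.59 in WT at 17 dpp. On both probes 3 of the 4 arrays of 26 dpp lay below all 17 dpp arrays, and KO replicate 2 lay above them. The WT difference with age was -0.83 for the brighter probe (SE 0.51, 95% interval -2.08 to 0.41, adjusted p = 0.209) and -0.72 for the second (SE 0.50, adjusted p = 0.254).

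Sycp1, the filament gene, had signals of 4.05 and 5.19 in KO and 4.06 and 3.92 in WT at 26 dpp, and 4.36 and 4.89 in KO and 4.49 and 4.53 in WT at 17 dpp. Its probe shares no stretch longer than 5 bases with the array's probe for the pseudogene Sycp1-ps1. Sycp2, the partner of SYCP3 in the lateral element, had signals of 0.63 and 2.60 in KO and 0.63 and 0.54 in WT at 26 dpp, and 0.64 and 1.35 in KO and 0.72 and 1.22 in WT at 17 dpp. For both genes the WT arrays of 26 dpp lay below those of 17 dpp and KO replicate 2 stood above every other array. The WT difference was -0.52 for Sycp1 (SE 0.42, adjusted p = 0.331) and -0.38 for Sycp2 (SE 0.65, adjusted p = 0.636).

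Tex12 and Syce2, whose products form the fibres of the central element together, did not follow Syce1. Tex12 had signals of 2.55 and 3.64 in KO and 2.30 and 2.37 in WT at 26 dpp, and 2.63 and 3.34 in KO and 2.78 and 3.04 in WT at 17 dpp. Its probe had 10 spots, of which 8 to 10 per array were used, and their spread within an array was 0.0319 to 0.0676 (SD of log2 signal), far less than the gap between the 2 KO arrays of either age. Syce2 had signals of 4.16 and 5.17 in KO and 4.02 and 4.59 in WT at 26 dpp, and 4.81 and 4.87 in KO and 4.69 and 4.66 in WT at 17 dpp. The WT difference was -0.58 for Tex12 (SE 0.44, adjusted p = 0.297) and -0.37 for Syce2 (SE 0.40, adjusted p = 0.452).

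Each of the 9 genes kept the WT arrays of the 2 ages apart, which 87.6% of tested probes also did. In the order of group means, KO and WT at 17 dpp were neighbours for all genes but Sycp1 and Sycp3, where the KO mean of 26 dpp lay between them, and differed by no more than 0.17 for any gene. Set against the median shift of all probes, the WT change was 2.68 for Syce1, 1.67 for Rec8, 1.53 for Stag3 and 0.74 for Smc1b, and -0.30 for Sycp3. It was between -0.05 and 0.16 for Sycp1, Sycp2, Syce2 and Tex12. With normexp and quantile normalization the shift of all probes was -0.259. The change relative to it became -0.28 for Sycp1, -0.09 for Sycp2, -0.17 for Syce2 and -0.31 for Tex12. The sign relative to other probes thus depended on the scaling for Sycp1, Sycp2 and Syce2. For Tex12 it was negative in both, at -0.05 in the main setting. The direction before that correction was the same for all 9 genes under both normexp settings and in the deposited table.

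**Figure D2:**
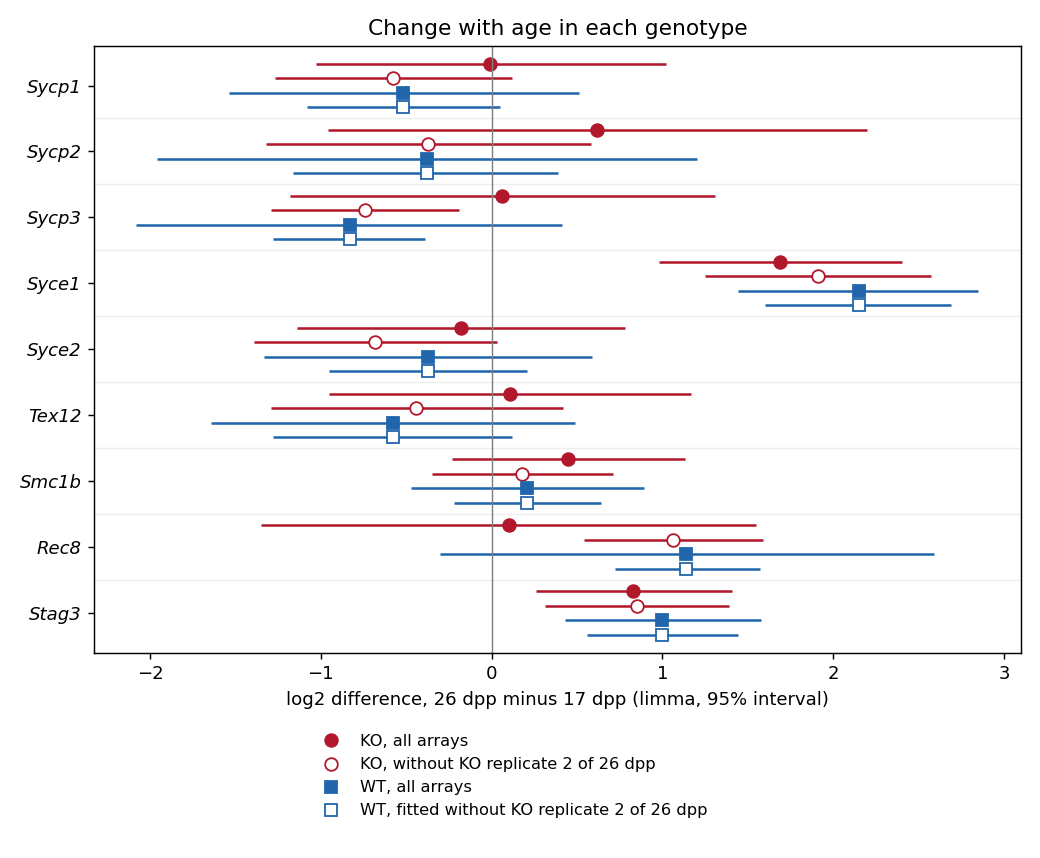
Log2 difference between 26 and 17 dpp (horizontal axis) with its 95% interval from limma for each gene in KO (red) and WT (blue), with all arrays (filled) and without KO replicate 2 of 26 dpp (open). Syce1 is 1.69 in KO and 2.15 in WT, and the open and filled KO points lie farthest apart for Sycp2 and Rec8.

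In KO testes Syce1 alone of the 9 rose with age in limma's test, where 14.8% of all probes were called, 6.92% as higher. The median difference of the 9 was 0.109, and of all probes -0.358. KO replicate 2 decided this picture. Without it, Syce1 (1.91, adjusted p = 0.00384), Rec8 (1.06, adjusted p = 0.00973) and Stag3 (0.85, adjusted p = 0.0208) rose and Sycp3 fell by 0.74 (adjusted p = 0.0333), and the other 5 did not pass, where 58.7% of probes were called (19.9% higher, 38.8% lower). Without KO replicate 1 of 26 dpp, Syce1 (1.46, adjusted p = 0.0241) and Sycp2 (1.61, adjusted p = 0.0435) rose and Rec8 fell by 0.87 (adjusted p = 0.0457), where 18.5% were called (8.22% higher, 10.3% lower). The direction for Rec8 thus turned with the array left out, and the one array kept is assumed to vary like the other groups. The Syce1 call in KO was lost without any 1 of the other 6 arrays, at adjusted p between 0.0603 and 0.145.

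Leaving out KO replicate 2 also narrowed the intervals in WT, since the groups share 1 estimate of the spread. The WT results were the same with KO replicate 1 of 26 dpp left out instead. Syce1 (adjusted p = 0.000947), Rec8 (adjusted p = 0.00281) and Stag3 (adjusted p = 0.00471) then rose and Sycp3 fell with age in WT (adjusted p = 0.00944, second probe 0.0254), where 68.4% of probes were called (23.6% higher, 44.8% lower). The WT calls of Syce1 and Stag3 were lost without any 1 of the 4 WT arrays. Their adjusted p then was 0.0523 to 0.0781 for Syce1 and 0.0944 to 0.139 for Stag3.

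Markers of cell types, listed with earlier results of these data known, moved with age as well. Rose and fell here mean called in limma's test, where 17.6% of all tested probes were higher and 26.6% lower. Markers of pachytene spermatocytes, which carry the full synaptonemal complex, rose with age in WT for 9 of 9 genes, those of round spermatids for 7 of 8 and those of elongating spermatids for 6 of 6. Sertoli cell markers fell for 7 of 9 and spermatogonial ones for 5 of 8. The summed linear signal of the pachytene list was 712.5 and 552 in KO and 779.7 and 809.6 in WT at 26 dpp, and 44.5 and 149 in KO and 72.5 and 96.7 in WT at 17 dpp. The Sertoli list gave 233.6 and 527.9 in KO and 240.4 and 216.2 in WT at 26 dpp, and 501.3 to 535 in KO and 516.6 to 550.1 in WT at 17 dpp. Of 6 measured epididymis markers 4 fell and 1 rose with age in WT. Among them Spink8 was at -1.59 and -2.78 at 26 dpp and 4.35 and 6.37 at 17 dpp in WT, and Crisp1 at -7.56 and -6.90 at 26 dpp and 1.15 and 2.76 at 17 dpp. The part of these shifts in the changes of the 9 genes was not tested.

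At 17 dpp no difference between KO and WT passed for any of the 9 genes. The differences ran between -0.13 for Sycp3 and 0.17 for Syce2, with 8 genes higher in KO and 1 lower, and all 9 had an adjusted p of 1 in limma's test. Of all probes 0.0688% were called, and 563 had an unadjusted p under 0.05. The 95% intervals reached 1.61 for Sycp2 and 0.60 for Stag3. The median of the 9 was 0.078, that of all probes 0.037. For the 9 genes the KO arrays were less alike than the WT arrays, with a median gap between replicates of 0.282, against 0.077 in WT. Over all probes the median gap was 0.274 in KO and 0.222 in WT. All 9 genes were higher on replicate 2 of 17 dpp than on replicate 1 in KO, and 8 of the 9 in WT. The pachytene sum was also higher on replicate 2 in both genotypes, at 149 against 44.5 in KO and 96.7 against 72.5 in WT. For 7 of the 9 genes (Sycp1, Sycp2, Sycp3, Syce1, Tex12, Smc1b and Stag3) the sign changed with the array left out. Epididymis markers summed to 5.88 and 3.87 in KO and 27.4 and 94.3 in WT at 17 dpp. Of these 6 measured markers 3 were called lower in KO. Their part in these values was not tested.

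**Figure D3:**
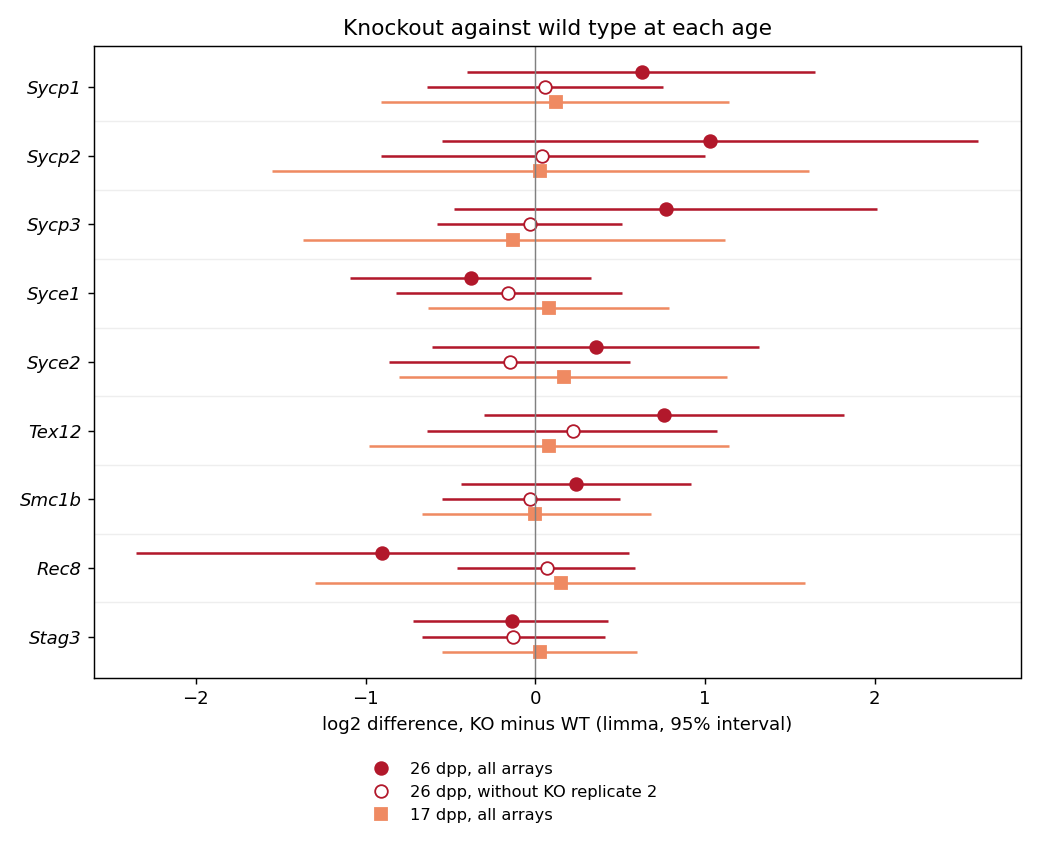
Log2 difference between KO and WT (horizontal axis) with its 95% interval from limma for each gene at 26 dpp with all arrays (red, filled), at 26 dpp without KO replicate 2 (red, open) and at 17 dpp (orange). All intervals cross 0, and without KO replicate 2 the 26 dpp values lie between -0.16 and 0.22.

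At 26 dpp no difference between KO and WT passed either, and the means hid 2 unlike KO arrays. The differences were 1.03 for Sycp2 (SE 0.65), 0.77 for Sycp3 (SE 0.51), 0.76 for Tex12 (SE 0.44), 0.63 for Sycp1 (SE 0.42), 0.36 for Syce2 (SE 0.40) and 0.24 for Smc1b (SE 0.28). They were -0.14 for Stag3 (SE 0.24), -0.38 for Syce1 (SE 0.29) and -0.90 for Rec8 (SE 0.60). The lowest adjusted p was 0.535, and 0.00794% of all probes were called, with 1076 at an unadjusted p under 0.05. The KO and WT arrays did not overlap for Sycp2 and Tex12, which were higher in KO, or for Syce1 and Stag3, which were lower. For Sycp2 this holds only beyond the printed digits, since replicate 1 was at 0.63 in both KO and WT. Of all probes 32.7% did not overlap (18.4% higher, 14.3% lower). The median of the 9 was 0.356 and of all probes 0.118.

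With either KO array of 26 dpp left out, the 1 kept stands for KO at that age and is assumed to vary like the other groups. The p-values of such a fit do not measure the spread between KO arrays of 26 dpp. Without KO replicate 2 the differences between KO and WT at 26 dpp lay between -0.16 for Syce1 and 0.22 for Tex12. Each then had an adjusted p of 1, where 0.0159% of probes were called, and the intervals reached 1.07 for Tex12 and 0.59 for Rec8. Without KO replicate 1 instead, Sycp2 (2.02, adjusted p = 0.0116), Sycp3 (1.57, adjusted p = 0.00564), Tex12 (1.31, adjusted p = 0.0295) and Sycp1 (1.2, adjusted p = 0.0209) were higher in KO and Rec8 lower (-1.87, adjusted p = 0.00347). Then 44.1% of all probes were called, 27.2% as higher and 16.9% as lower. The difference between the KO effects at 26 and at 17 dpp passed for none of the 9, with a lowest adjusted p of 0.791, and 0 of all probes passed, which is 0%, with 779 at an unadjusted p under 0.05. Without KO replicate 1, 3 of the 9 passed for that difference, namely Sycp2, Sycp3 and Rec8, where 30.9% of probes did.

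KO replicate 2 stood apart for most of these genes. It was nearer to the WT mean of 17 dpp than to that of 26 dpp for 6 of the 9 (all but Syce1, Smc1b and Stag3), against 60.4% of all probes. It was above all 7 other arrays for Sycp1, Sycp2, Sycp3, Syce2, Tex12 and Smc1b, and over the WT mean of 26 dpp by 0.51 for Smc1b, 0.86 for Syce2, 1.2 for Sycp1, 1.31 for Tex12, 1.57 for Sycp3 and 2.02 for Sycp2. It was also above the WT mean of 17 dpp, by 1.64 for Sycp2 and 0.49 to 0.73 for the other 5. For Rec8 it was below all 7 others, by 1.87 under the WT mean of 26 dpp and by 0.72 under that of 17 dpp. For Syce1 (5.69) and Stag3 (5.03) it stood with the arrays of 26 dpp. In all, 6 of the 9 genes were above all 7 other arrays and 1 below, against 15.6% and 13.5% of all probes. The gap to KO replicate 1 was over 1 for 6 of the 9, against 42.2% of all probes.

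The markers of the same array split by stage. Its elongating spermatid sum was 0.557, against 757.4 on KO replicate 1 and 497.6 and 1441 in WT at 26 dpp, and against 0.588 and 0.658 in KO and 0.358 and 0.406 in WT at 17 dpp. All 6 markers of that list were measured, and 5 of them were well above background on this array. Its round spermatid sum was 37.9, against 194.9 on KO replicate 1 and 183.6 and 235.6 in WT at 26 dpp, and at most 5.93 at 17 dpp. Acrbp, an acrosome gene, made up 97% of that 37.9. The sum of the other 7 round spermatid markers was 1.15, against 77.8 to 122 on the other 26 dpp arrays and 0.865 to 1.03 at 17 dpp. Its pachytene sum of 552 was below the 712.5 of KO replicate 1, and Ldhc, a lactate dehydrogenase gene, made up 48.7% of it. Of the 9 pachytene markers 8 were lower on it than on the other 26 dpp arrays, and all 9 were higher than on every 17 dpp array. Pgk2, a glycolysis gene, was at 1.44 on it, against 4.81 to 5.30 on the other 26 dpp arrays, and the cyclin gene Ccna1 at 1.27, against 3.62 to 3.82. Its Sertoli sum of 527.9 was near those of 17 dpp, and the gene Clu made up 76% of it. Without Clu the sum was 126.8, against 133.4 to 175.7 at 17 dpp and 50.16 to 59.04 on the other 26 dpp arrays. Of the 9 Sertoli markers 3 lay within the range of the 17 dpp arrays and 1 above it. Leydig cell markers summed to 1.02 on KO replicate 2 and to at least 11.49 on every other array. The part of these differences in the KO comparison was not tested.

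**Figure D4:**
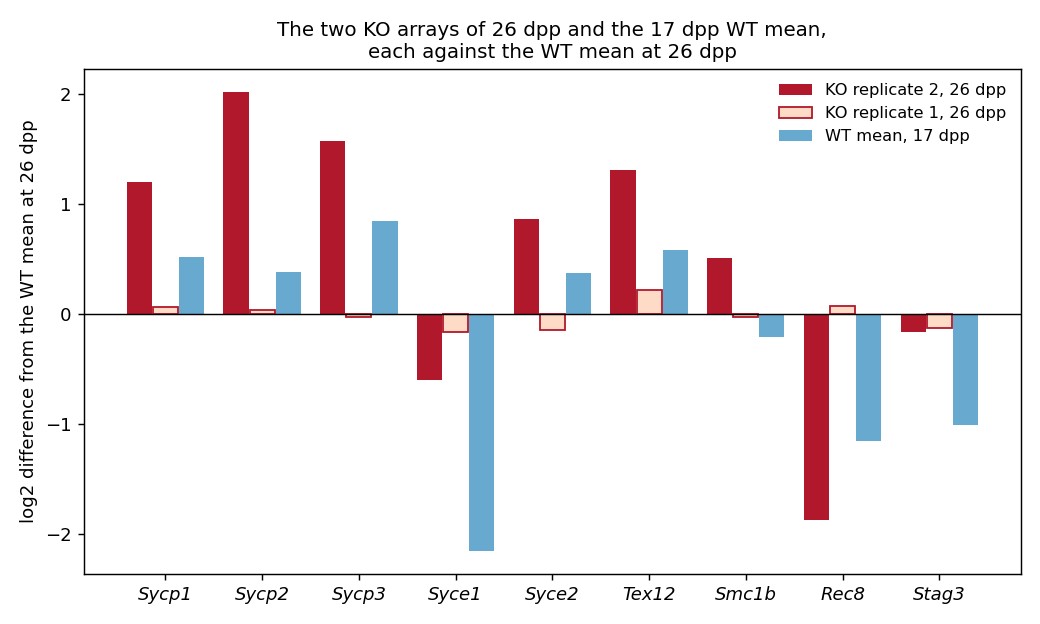
Log2 difference (vertical axis) of KO replicate 2 of 26 dpp (dark red), KO replicate 1 of 26 dpp (pale red) and the WT mean of 17 dpp (blue) from the WT mean of 26 dpp, for each gene; bars start at 0 and each KO bar is a single array. KO replicate 1 stays within 0.22 of the WT mean of 26 dpp, and KO replicate 2 is at 2.02 for Sycp2 and -1.87 for Rec8.

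Related genes, also listed with earlier results known, were tested in the same fit. Of 8 other genes of the synaptonemal complex and the axis that were measured, 3 fell with age in WT and 0 rose, with a list median of -0.81. They were Tex11, an X-linked gene needed for synapsis (-2.32, adjusted p = 0.0302), Trip13, the ATPase that strips HORMAD proteins from synapsed axes (-1.76, adjusted p = 0.0440), and Fkbp6, needed for male fertility (-1.58, adjusted p = 0.0434). Syce3, another central element gene, was at 0.43 (adjusted p = 0.243), and Six6os1, which encodes a partner of SYCE1, at -1.01 (adjusted p = 0.113). Sycp2l did not pass the filter on dim probes.

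Cohesin genes moved in both directions. Of the 4 somatic counterparts 3 fell with age in WT and 0 rose, with a list median of -2.13: Stag2 (-2.23, adjusted p = 0.0220), Smc1a (-2.20, adjusted p = 0.0265) and Rad21 (-2.06, adjusted p = 0.0342). Stag1 was at -0.65 (adjusted p = 0.230). Of the 4 meiotic partners and protectors 2 rose: Meikin, which acts at the kinetochores of meiosis I (2.85, adjusted p = 0.0141), and Sgo2a, the shugoshin that shields REC8 at centromeres (1.52, adjusted p = 0.0152). Smc3, the subunit common to all cohesin rings, was at -1.27 (adjusted p = 0.0836) and Rad21l, the other meiotic kleisin, at -1.75 (adjusted p = 0.0543). Rad21l was dim in WT, at -5.49 and -5.18 at 26 dpp and -3.35 and -3.82 at 17 dpp. Its difference ran from -1.99 to -0.57 across the alternative settings. Among 12 genes of cohesin loading, release and cleavage 2 rose and 2 fell. Nipbl, the loader, was at 2.77 (adjusted p = 0.0193) and its partner Mau2 at -1.07 (adjusted p = 0.0335). Pttg1, the securin that holds separase back, rose by 1.35 (adjusted p = 0.0141) and Sgo1 fell by 2.13 (adjusted p = 0.0221). Wapl, the release factor, was at 0.53 (adjusted p = 0.175) and Esco1, a cohesin acetyltransferase, at -1.12 (adjusted p = 0.0788).

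Recombination genes moved both ways, with 3 of 15 higher and 5 lower and a median of -0.55. Spo11, which makes the breaks that start recombination, rose by 2.38 (adjusted p = 0.00768), Psmc3ip by 2.26 (adjusted p = 0.0113) and Mlh3, which acts at crossovers, by 1.56 (adjusted p = 0.0250). Mei1 fell by 1.60 (adjusted p = 0.0409), Prdm9, which marks hotspots, by 1.53 (adjusted p = 0.0277) and the strand exchange gene Dmc1 by 1.37 (adjusted p = 0.0325). Meiob was at -0.92 (adjusted p = 0.172) and Mnd1 at -1.14 (adjusted p = 0.167). Of 6 measured regulators of meiotic transcription 2 rose and 1 fell: Pcgf6 (1.11, adjusted p = 0.0268), Mybl1 (0.85, adjusted p = 0.0455) and Mga (-1.78, adjusted p = 0.0208). Stra8, the retinoic acid target that starts meiosis, was at -1.84 (adjusted p = 0.0543), and Max at -1.26 (adjusted p = 0.0875). E2f6 did not pass the filter, and Meiosin was not found by name among the probes. Beside these counts stand the 17.6% of all probes that were called higher and 26.6% lower. The WT calls of the related genes named here were all lost without any 1 of the 4 WT arrays, at adjusted p between 0.0520 and 0.236.

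**Figure D5:**
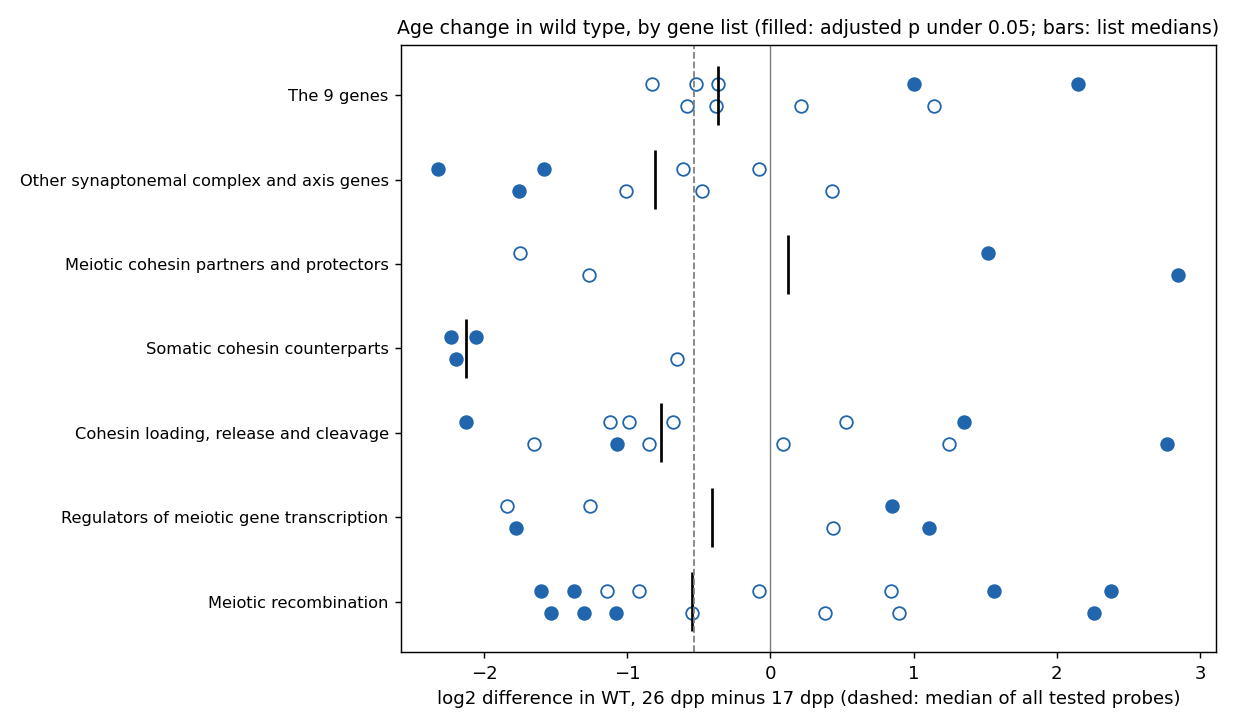
Log2 difference in WT between 26 and 17 dpp (horizontal axis) for each measured gene of the 9 and of 6 related lists; filled dots passed limma's test at an adjusted p of 0.05, bars are list medians and the dashed line is the median of all tested probes at -0.533. The 3 filled dots of the somatic cohesin list lie between -2.23 and -2.06, and those of the 9 genes are Stag3 at 1.00 and Syce1 at 2.15.

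Of the 49 measured genes of the 6 lists, 6 (12.2%) passed with age in KO and 23 (46.9%) in WT, near the 14.8% and 44.1% of all probes. Without KO replicate 2 of 26 dpp, the list medians with age in KO ran from -1.97 (somatic cohesin) to 0.03 (meiotic cohesin partners and protectors). The median of all probes was then -0.56. In KO with all arrays, Meikin rose by 2.40 (adjusted p = 0.0374), Pttg1 by 1.24 (adjusted p = 0.0308), Pcgf6 by 1.17 (adjusted p = 0.0431), Spo11 by 1.83 (adjusted p = 0.0240) and Psmc3ip by 2.04 (adjusted p = 0.0265). Hdac8, which deacetylates SMC3, fell (adjusted p = 0.0266). It was not well above background on either KO array of 26 dpp, where its measured mean was -6.31, against -3.91 in KO at 17 dpp, and it was at least 2.64-fold lower. The 2.64 sets the 17 dpp mean against the higher, per array, of its own signal and the dimmest signal of any probe that cleared the background. No gene of the 6 lists passed between KO and WT at either age. The list medians between KO and WT at 26 dpp were 0.725 for the synaptonemal complex and axis list and 0.945 for somatic cohesin. They were 0.53 for recombination, 0.42 for the regulators, 0.2 for meiotic cohesin partners and protectors and 0.155 for cohesin loading, release and cleavage. The median of all probes was 0.118. Without KO replicate 2 the list medians lay between 0.025 and 0.13, and that of all probes was -0.007.

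The mean profile of the 9 genes over the 8 arrays, each gene centred on its own mean, stood at 0.01 and 0.56 in KO and -0.05 and 0.09 in WT at 26 dpp, and at -0.31 and 0.06 in KO and -0.24 and -0.12 in WT at 17 dpp. Its highest point was KO replicate 2. Among the members, Smc1b followed it most closely, with a mean absolute difference of 0.03 over the 8 arrays, and Syce1 (0.81) and Rec8 (0.58) least, so it describes no single gene of the other 8 well. The other genes nearest to it, among those well above background on all arrays, were Mphosph8 (0.0316), Atr (0.0439), Rnf6 (0.0451), Srp19 (0.047), Cnot1 (0.0491), Fam98b (0.0508), Ptrhd1 (0.056) and Zfp263 (0.0599).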

How the data were processed

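Testis RNA was extracted with TRIZOL, primed with oligo-dT and labelled with Cy3, 1 sample per array, per the labels' protocols. Spot intensity values (processed, mean and background signal) were deposited as read by Agilent Feature Extraction 11.5.1.1, per the file headers, with background and spatial correction and no scaling between arrays. The authors' deposited table holds log2 values. Set against the scanner values it followed the log2 processed signal scaled by the 75th percentile at a correlation of 0.99991 to 0.99995. Scale and centring are thereby known, a 1-colour value has no direction, and how spots were combined is unknown. Its column medians were -3.62 and -3.84 (KO) and -3.59 and -3.64 (WT) at 26 dpp, and -3.67 and -3.63 (KO) and -3.69 and -3.69 (WT) at 17 dpp.

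Spots with an outlier flag (103 to 200 of 59305 on an array) were dropped, 0 were saturated, and the spots of a probe were averaged. Each value is the log2 processed signal less the log2 75th percentile over the array's probes (628.2 and 422.4 in KO and 585.8 and 609.8 in WT at 26 dpp, 449.6 and 415.9 in KO and 451 and 443.7 in WT at 17 dpp). A probe was kept if 1 group or more had it well above background on both arrays, less 97 with an outlier flag, leaving 37807. A gene is its kept probe of highest mean signal. Accessions gave a current symbol to 27509 probes and 3549 more carried one, and 24623 kept the file's name.

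limma 3.58.1 (R 4.3.3) fitted 1 mean per group over all 8 arrays, with two-sided moderated tests, 4 residual degrees of freedom and Benjamini-Hochberg adjustment over all 37807 probes. An adjusted p under 0.05 counted as passed. The 5 comparisons were KO against WT at each age, 26 against 17 dpp in each genotype, and the difference between the KO effects. With 2 arrays per group (n = 2), each p-value sets a difference against the spread between arrays. That spread was pooled over the 4 groups and moderated across probes (prior degrees of freedom 2.2). The scripts were checked on simulated data. Alternatives were 2 normexp settings (offset 50), 2 filters, the authors' deposited values, the replicate number as a block, only the arrays compared, 1 probe per gene and leaving out each array.

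The members, lists and motifs were chosen with earlier results of these data known. The text names all 9 members, the genes of each related list that passed with age (up to 4 per direction, largest first) with 2 of highest signal that did not, and the 8 genes nearest the members' mean profile. One gene that this rule names is not reported here. Promoter windows come from RefSeq (GRCm38.p6) and all 9 genes matched by symbol. Probe coordinates are the files' (mm9), and no genome was used here, so exons and UTRs are not assigned.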

Additional observations from a re-analysis of the deposited data

How the results depend on the processing

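Under the 9 settings that kept all arrays or only those compared, Syce1 and Stag3 rose with age in WT throughout (the 2 passed in each, 6 of the 9 genes in the WT arrays alone, with 26271 probes called). The numbers of probes called between KO and WT at 17 dpp were 1 (normexp and quantile normalization), 2 (normexp and the 75th percentile), 11 (no filter) and 0 (a stricter filter that keeps probes bright on all arrays, 177 unadjusted, and only the arrays compared, 1460). At 26 dpp they were 0 under the same 5 settings, and 536, 487, 1778, 527 and 360 had an unadjusted p under 0.05. With age in KO, 2 of the 9 genes passed with normexp and the 75th percentile, and 2 with the stricter filter. With only the KO arrays 0 passed, and 0 of all probes (7411 unadjusted). The difference with age in KO turned sign for Sycp3 (-0.02, normexp and quantile normalization) and Sycp1 (0.10, normexp and the 75th percentile). The causes were not tested.

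Deviations from group means correlated between -0.372 and 0.108 across pairs of groups. The lowest value, between KO and WT at 26 dpp, includes the outlying KO array. These values cannot decide whether replicate numbers pair the samples, since each group has few arrays. With the replicate block, 1 probe passed between KO and WT at 17 dpp and 0 at 26 dpp (863 unadjusted). With age in KO 1959 probes and 0 of the 9 genes passed (11653 unadjusted, Syce1 at an adjusted p of 0.0521). Of the related genes named, Mau2, Mei1, Dmc1, Trip13, Fkbp6, Mybl1 and Rad21 lost their call in WT. With no filter Mei1, Trip13, Fkbp6 and Mybl1 lost it, and Mybl1 under both normexp settings. Of the 22 called related genes taken up by the naming rule, 10 lost it when either KO array of 17 dpp was left out, Prdm9, Tex11 and Smc1a among them, and 22 when any 1 WT array was (adjusted p 0.0520 to 0.236).

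Leaving out 1 array gave the following ranges for limma's counts and for the median of the 9 genes. Between KO and WT at 17 dpp 0 to 33 probes and 0 of the 9 genes passed, with medians of -0.145 to 0.196. Between KO and WT at 26 dpp 0 to 16690 probes and 0 to 5 genes passed (-0.026 to 0.861). With age in WT 0 to 25878 probes and 0 to 4 genes passed (-0.369 to -0.087). With age in KO 0 to 22205 probes and 0 to 4 genes passed (-0.367 to 0.716). For the difference between the KO effects 0 to 11691 probes and 0 to 3 genes passed (-0.061 to 0.696). Some single-gene differences, none of them called with all arrays, turned sign. Between KO and WT at 17 dpp they ranged over -0.15 to 0.38 for Sycp1, -0.32 to 0.38 for Sycp2, -0.27 to 0.01 for Sycp3, -0.14 to 0.31 for Syce1, -0.28 to 0.43 for Tex12, -0.10 to 0.11 for Smc1b and -0.11 to 0.17 for Stag3. At 26 dpp they ranged over -0.03 to 1.57 for Sycp3, -0.15 to 0.86 for Syce2, -0.03 to 0.51 for Smc1b and -1.87 to 0.07 for Rec8. With age in KO they ranged over -0.58 to 0.57 for Sycp1, -0.37 to 1.61 for Sycp2, -0.74 to 0.86 for Sycp3, -0.68 to 0.33 for Syce2, -0.44 to 0.65 for Tex12 and -0.87 to 1.06 for Rec8. For the difference between KO effects they were -0.06 to 1.08 for Sycp1, -0.31 to 0.70 for Syce2 and -0.03 to 0.51 for Smc1b. The upper counts came without a KO array of 26 dpp. The 9 genes were well above background on all arrays, and 2 arrays per group limit the precision.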
